A study of Mus musculus with 12 samples.

Results

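The interferon-stimulated genes and sensors are a set of 37 mouse genes out of 55385 gene identifiers in the count table. They were listed by name, with earlier results of these data known. Shares of members set beside those of all genes below are therefore descriptions only. All 37 were found, and 36 had enough reads over the 12 libraries together to be tested. They were followed in 12 bulk RNA sequencing libraries of C57BL/6 mouse cells, 4 libraries each of the endometrial cancer line HPmECC, the endometrial cancer line mECC and primary cultured normal endometrium cells, called normal below. The titles code HPmECC as WT, mECC as DM and normal as B6, and do not explain these codes. The series' design text says that cancer lines with and without overexpressed Myc were sequenced, and the labels do not say which line is which. No interferon or other treatment is named in the labels for any group. Each cancer group is 1 named line. Nothing in the labels states that its 4 libraries, or those of normal cells, are separate cultures or animals. The p-values therefore measure the spread between libraries only, and that spread may be technical.

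Cells sense viral RNA through the helicases RIG-I and MDA5 and misplaced DNA through cGAS, and these sensors act through adaptors and kinases on IRF3, IRF7 and NF-kB to switch on interferon genes. Secreted type I and type III interferons bind receptors that signal through JAK kinases to a complex that contains STAT2 and IRF9 and binds a DNA motif called the interferon-stimulated response element (ISRE). Interferon gamma acts mainly through another motif, the gamma-activated site (GAS). The genes switched on encode inhibitors of viral RNA translation, nucleases, GTPases and the regulators of the pathway itself, and many are also held at a low level in resting cells. The endometrial epithelium is known for making interferon epsilon, a type I interferon of the female reproductive tract.

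CPM values below are read counts relative to library size, scaled by TMM, a library normalization, and lists of 4 values follow replicates 1 to 4 of the titles. Errors after ± are SD over 4 libraries, and FC stands for fold change. SE is approximate, taken as the size of the log2 fold change divided by the square root of the F statistic of its edgeR test. It can be too small where a group has few counts, as for Oas1a, Oas2, Oas3 and Mx1 in the lines. HPmECC libraries held 18402202 to 26873582 counts, mECC libraries 21755275 to 25821106 and normal libraries 16332060 to 24202564. Myc averaged 266 ± 24.0 CPM in HPmECC, 59.4 ± 2.09 in mECC and 111 ± 5.05 in normal cells. The normal culture held transcripts of several cell types. The summed CPM of 15 leukocyte markers was 18.1 to 21.3 in HPmECC, 11.4 to 14.0 in mECC and 260 to 279 in normal cells. Markers with 0 counts included Ptprc, Adgre1, Tyrobp, Cd3e and Siglech in HPmECC, Tyrobp, Cd52, Cd3e and Siglech in mECC, and Siglech and Nkg7 in normal cells. For 10 epithelial markers the summed CPM was 309.5 to 325 in HPmECC, 1598 to 1635 in mECC and 9068 to 9401 in normal cells, with no marker at 0. All 10 were lower in HPmECC than in mECC at an edgeR adjusted p under 0.05. In HPmECC the sum came mostly from the keratins Krt8, Krt18, Krt19 and Krt7. Epcam averaged 0.340 CPM there and 92.6 in mECC, Cdh1 0.935 and 104.8, Cldn4 0.527 and 83.3, and Esrp1 0.0395 and 17.5. Cldn3 and Muc1 were also low in HPmECC. The 9 stromal markers summed to 8680.2 to 9362 CPM in HPmECC, 7553 to 8376 CPM in mECC and 2184 to 2720.3 CPM in normal cells, with Thy1 at 0 in mECC. These markers did not move together. In each line 5 were higher and 4 lower than normal at an edgeR adjusted p under 0.05, with Col1a2, Thy1, Dcn and Lum lower in both. The 7 endothelial markers summed to 16.7 to 18.0 CPM in HPmECC, 6.89 to 8.10 CPM in mECC and 110.3 to 123 CPM in normal cells, with Cdh5 and Tie1 at 0 in HPmECC. Of the 4 that were tested, 3 were lower in HPmECC than in normal cells and Egfl7 was higher (10.7 against 4.95 CPM, log2 FC 1.11, edgeR adjusted p = 6.4e-09). All 4 were lower in mECC than in normal cells. For 6 smooth muscle markers these sums were 186 to 247 CPM in HPmECC, 51.3 to 53.6 CPM in mECC and 2276 to 2743 CPM in normal cells. For 5 mesothelial markers they were 8.99 to 11.1 CPM in HPmECC, 36.6 to 42.1 CPM in mECC and 444 to 486 CPM in normal cells, with Upk3b, Upk1b and Lrrn4 at 0 in HPmECC and Wt1 and Upk1b at 0 in mECC. The part of other cell types in the differences from normal cells was not tested, and in bulk samples fewer cells of a type and less RNA per cell cannot be told apart.

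Members differed widely in level, so they were first compared with each other on the TPM scale, which accounts for transcript length. In HPmECC the highest were Isg20, an exonuclease, at 64.0 ± 6.37 TPM, the membrane tether Bst2 at 62.6 ± 1.98 TPM and the transcription factor Irf1 at 58.5 ± 3.49 TPM (SD, n = 4). In mECC the highest was the immunity-related GTPase Irgm1 at 118 ± 4.48 TPM, ahead of Bst2 at 76.8 ± 1.28 TPM and Irf1 at 76.8 ± 3.33 TPM (SD, n = 4). In normal cells Bst2 led at 189.9 ± 16.01 TPM, followed by Isg20 at 100.01 ± 3.02 TPM and Ifi27 at 67.2 ± 6.38 TPM (SD, n = 4). Isg20, Bst2 and Irf1 in HPmECC, and Bst2 and Irf1 in mECC, were within their spread of each other, while Irgm1 in mECC and Bst2 in normal cells stood clear of the next gene. The summed TPM of all 37 members was 474 to 496 in HPmECC libraries, 604 to 623 in mECC libraries and 682 to 737 in normal libraries, and these ranges do not overlap. At least 1 TPM was reached by 30 members in HPmECC, 28 in mECC and 33 in normal cells, and at least 10 TPM by 14 members in HPmECC, 13 in mECC and 14 in normal cells. In mECC, 2 members (Oas2 and Oas3) had 0 counts in all 4 libraries.

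**Figure D1:**
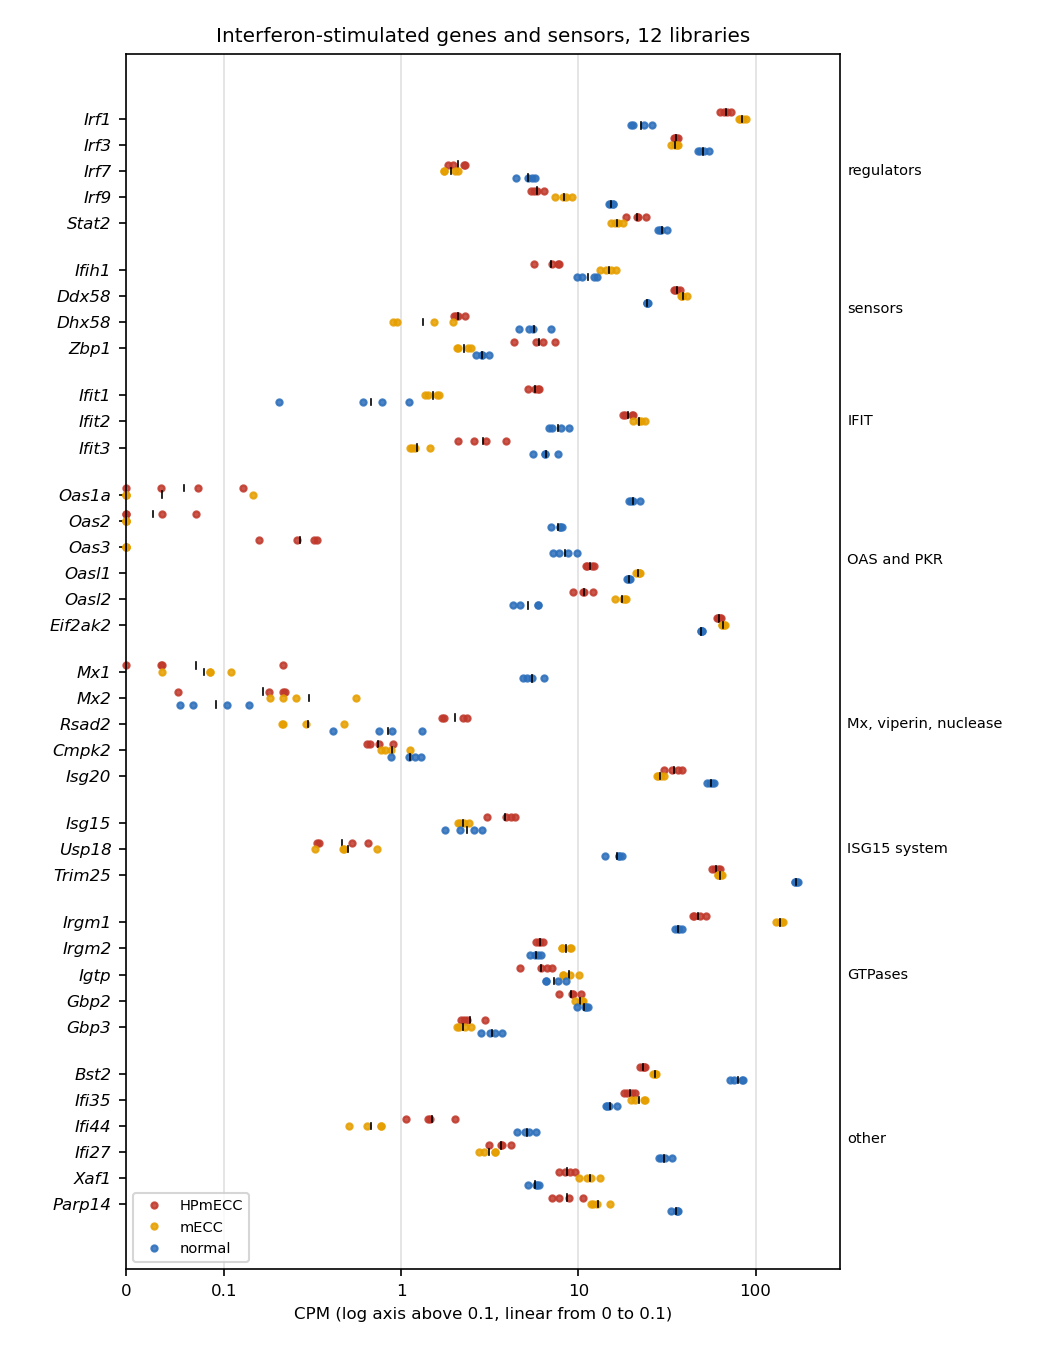
CPM of the 37 members in the 12 libraries, with genes grouped by role from top to bottom, HPmECC above mECC above normal within each gene, 1 point per library and a black bar at the group mean; the axis is logarithmic above 0.1 CPM and linear from 0 to 0.1. Oas1a, Oas2, Oas3, Mx1 and Usp18 lie far left of the normal libraries in both cancer lines, while Oasl1, Oasl2, Eif2ak2 and Ddx58 lie at 4.27 CPM or more in every library.

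Between the 2 cancer lines, the response genes split into opposed groups. Ifit1, Ifit3, Rsad2, Zbp1, Isg15, Ifi44, Dhx58, Stat2, Isg20 and Oas3 were higher in HPmECC, and Irgm1, Ifih1, Oasl1, Oasl2, Parp14, Igtp, Irf9, Irgm2, Xaf1, Irf1, Bst2, Ifit2, Ifi35, Ddx58 and Eif2ak2 were lower. That is 10 members higher and 15 lower of 36 tested at an edgeR adjusted p under 0.05, against 33.8% of all genes tested called higher and 34.5% called lower. Called members made up 69.4% of those tested, near the 68.3% of all 15283 genes. With at least 2-fold as a further condition, 6 members were higher and 2 lower, 22.2% of the members, against 6.73% of all genes higher, 9.4% lower and 16.1% in either direction. The median log2 fold change was -0.08 over members and -0.00169 over all genes. The CPM of 23 members did not overlap between the lines, where 63% of all genes did not. Oas1a, Oas2, Oas3 and Mx1 had few counts in both lines and passed the filter on low counts only through the normal libraries. They are still counted among the 36 tested here, and Oas3 among those higher at 2-fold or more.

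Against normal cells, mECC had far less of the OAS transcripts Oas1a, Oas2 and Oas3, of the Mx GTPase Mx1 and of the ISG15 protease Usp18, and more of Irgm1, Irf1, Oasl2 and Ifit2. In all, 13 members were higher and 19 lower in mECC, where 42.1% of all genes were called higher and 44.2% lower. The called share was 88.9% of members tested and 86.3% of all genes. At 2-fold or more, 6 members were higher and 14 lower, 55.6% of those tested, against 18.4% of all genes higher, 22.8% lower and 41.2% in either direction. The median log2 fold change was -0.52 over members and -0.018 over all genes, and it is the same with Oas2 and Oas3 placed at their floor values. The CPM of 31 members did not overlap, against 82.3% of all genes. Oas1a, Oas2, Oas3 and Mx1 passed the filter only through the normal libraries, where they are high. Their calls against normal, in either line, are therefore descriptions only. Scaling by library totals in place of TMM moved the median of all genes to 0.22 and the split of all genes to 7866 higher and 5453 lower, where TMM gave 6436 higher and 6748 lower.

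HPmECC differed from normal cells in the same OAS, Mx1 and Usp18 transcripts, and Ifit1 was the member furthest above normal. Here 12 members were higher and 22 lower, against 43% of all genes called higher and 43.3% called lower. The called share was 94.4% of members tested and 86.4% of all genes. At 2-fold or more, 6 were higher and 14 lower, 55.6% of those tested, against 18.5% of all genes higher, 23% lower and 41.5% in either direction. The median log2 fold change was -0.55 over members and 0.00117 over all genes, and library totals moved the median of all genes to 0.20 and the split of all genes to 7725 higher and 5583 lower, where TMM gave 6575 higher and 6625 lower. The CPM of 31 members did not overlap, against 81.7% of all genes. Since all 3 comparisons share libraries, their calls are given side by side only. Not called between the lines and lower than normal in each of them were 9 members, Irf3, Irf7, Oas1a, Oas2, Mx1, Usp18, Trim25, Gbp3 and Ifi27, a pattern shown by 13.3% of all genes tested. Lower in HPmECC than in mECC and higher than normal in both lines were 8 members, Irf1, Ddx58, Ifit2, Oasl2, Eif2ak2, Irgm1, Ifi35 and Xaf1, against 11.8% of all genes. Higher in HPmECC than in mECC and lower than normal in both lines were 6 members, Stat2, Dhx58, Ifit3, Oas3, Isg20 and Ifi44, against 10.8% of all genes.

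**Figure D2:**
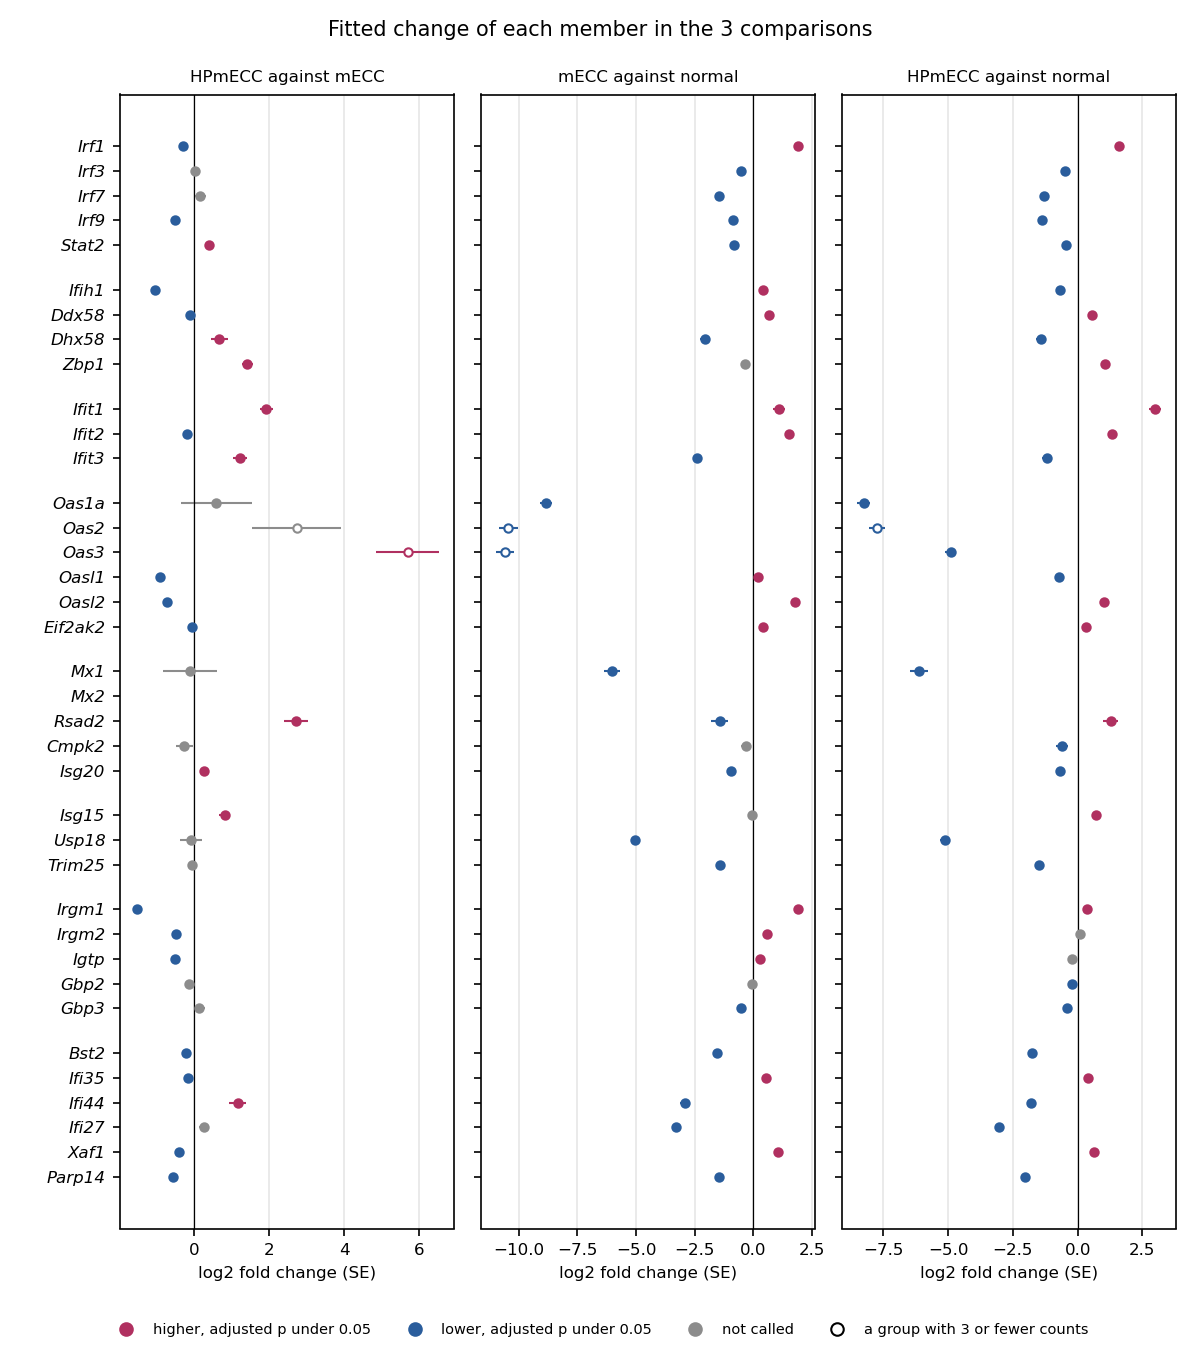
Fitted log2 fold change of each tested member with its approximate standard error, for HPmECC against mECC (left), mECC against normal (middle) and HPmECC against normal (right). Red is higher and blue lower at an edgeR adjusted p under 0.05, and grey is not called. Open points have a group with 3 or fewer counts, where the fitted value depends on the prior count. The points of Oas1a, Oas2, Oas3, Mx1, Usp18 and Ifi27 lie left of -3 in both comparisons with normal cells, and Mx2 was not tested.

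Among the transcriptional regulators, Irf1 was the member that rose in both lines over normal cells while Irf3, Irf7, Irf9 and Stat2 were all lower. IRF1 activates antiviral and antigen presentation genes and is itself an early target of interferon gamma. The Irf1 gene (ENSMUSG00000018899, chr11:53770014-53778374, plus strand, GRCm38) had CPM values of 63.4, 68.7, 66.8 and 72.6 in HPmECC, 80.6, 81.8, 84.9 and 88.9 in mECC and 26.1, 20.3, 19.7 and 23.6 in normal cells. No library of one group overlapped another group. Irf1 was higher than normal in mECC (log2 FC 1.91, SE 0.066, edgeR adjusted p = 1.54e-15) and in HPmECC (1.61, SE 0.067, edgeR adjusted p = 3.02e-14), and lower in HPmECC than in mECC (-0.31, SE 0.056, edgeR adjusted p = 8.01e-05). Its promoter, the 250 bases before to 50 bases after the start in the RefSeq table, holds 1 GAS match at positions -90 to -82, shown in capitals because it is the motif class tied to interferon gamma (RefSeq, GRCm38.p6, chr11:53769904-53769952, plus strand):
Irf1: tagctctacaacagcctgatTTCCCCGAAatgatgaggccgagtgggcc

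STAT2 and IRF9 are parts of the complex that binds the ISRE. Irf9 had CPM values of 5.84, 6.40, 5.62 and 5.42 in HPmECC, 9.19, 7.34, 8.19 and 8.55 in mECC and 15.7, 15.7, 14.8 and 15.2 in normal cells. All groups were separate, with HPmECC lowest and normal highest. Irf9 fell in HPmECC relative to mECC (log2 FC -0.51, SE 0.084, edgeR adjusted p = 3.11e-05) and was lower than normal in mECC (-0.89, SE 0.077, edgeR adjusted p = 2.9e-09) and HPmECC (-1.39, SE 0.081, edgeR adjusted p = 6.39e-12). Its exons share 123 bases with Rnf31 on the same strand, which leaves its counts uncertain to that extent. Stat2 had CPM values of 24.1, 21.6, 21.5 and 18.6 in HPmECC, 16.04, 15.3, 16.7 and 17.9 in mECC and 29.0, 31.6, 29.4 and 28.2 in normal cells. HPmECC lay above mECC and below normal in every library, over mECC (log2 FC 0.38, SE 0.072, edgeR adjusted p = 0.000126) and against normal (-0.47, SE 0.070, edgeR adjusted p = 4.73e-06). In mECC, Stat2 was lower than normal (log2 FC -0.85, SE 0.071, edgeR adjusted p = 1.78e-09).

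IRF3 and IRF7 are the factors that switch on interferon genes themselves. Irf3 averaged 35.5 ± 0.681 CPM in HPmECC, 35.2 ± 1.57 in mECC and 50.4 ± 3.18 in normal cells. Irf7, itself interferon-inducible, averaged 2.08 ± 0.219 CPM (mean ± SD) in HPmECC, 1.89 ± 0.180 in mECC and 5.20 ± 0.537 in normal cells. Both were lower than normal in each line, Irf3 in mECC (log2 FC -0.51, SE 0.046, edgeR adjusted p = 4.41e-09) and Irf7 (log2 FC -1.45, SE 0.14, edgeR adjusted p = 7.81e-09). Neither passed the test between the lines (edgeR adjusted p = 0.85 for Irf3 and 0.38 for Irf7), and the sign of the Irf3 difference turned under other scalings. Irf7 shares 45 exon bases with Phrf1 on the opposite strand, and no strand setting of the counting is given in the sources used here.

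The 4 nucleic acid sensors moved in different directions. Ifih1 (ENSMUSG00000026896) encodes MDA5, the sensor of long viral RNA. It had CPM values of 7.08, 7.76, 5.62 and 7.63 in HPmECC, 13.2, 16.3, 14.3 and 15.3 in mECC and 12.8, 12.3, 10.5 and 9.87 in normal cells. The HPmECC libraries were the lowest and the mECC libraries the highest, with normal cells between them and no overlap. The log2 fold change was -1.06 (SE 0.10, edgeR adjusted p = 2.92e-08) for HPmECC against mECC, 0.39 (SE 0.099, edgeR adjusted p = 0.00129) for mECC against normal and -0.67 (SE 0.11, edgeR adjusted p = 1.38e-05) for HPmECC against normal. Ddx58, which encodes RIG-I, the sensor of short RNA with an uncapped end, averaged 35.9 ± 1.15 CPM (mean ± SD) in HPmECC, 38.9 ± 1.47 in mECC and 24.4 ± 0.179 in normal cells. It was higher than normal in mECC (log2 FC 0.67, SE 0.042, edgeR adjusted p = 1.88e-11) and in HPmECC (log2 FC 0.55, SE 0.043, edgeR adjusted p = 4.42e-10). Between the lines the log2 fold change was small, -0.12 (SE 0.039, edgeR adjusted p = 0.0111), and it missed the threshold on both TPM scales of limma (adjusted p = 0.109 and 0.103) and without mECC replicate 2 (edgeR adjusted p = 0.0546).

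Dhx58 encodes LGP2, a relative of RIG-I that tunes the other sensors, and Zbp1 a sensor of nucleic acid in the Z form that can start necroptosis. Dhx58 had CPM values of 2.09, 2.29, 1.99 and 2.03 in HPmECC, 0.898, 0.945, 1.52 and 1.96 in mECC and 5.28, 6.96, 4.63 and 5.51 in normal cells. The 4 mECC libraries spread more than the others, yet stayed below all HPmECC libraries, and normal cells lay above both lines. Dhx58 was lower than normal in mECC (log2 FC -2.08, SE 0.20, edgeR adjusted p = 1.21e-08) and in HPmECC (log2 FC -1.41, SE 0.19, edgeR adjusted p = 1.09e-06), and higher in HPmECC than in mECC (log2 FC 0.67, SE 0.22, edgeR adjusted p = 0.0117). Zbp1 had CPM values of 4.35, 5.75, 6.30 and 7.40 in HPmECC, 2.10, 2.36, 2.07 and 2.47 in mECC and 2.84, 2.86, 2.64 and 3.12 in normal cells. It stood apart in HPmECC, where each library was above every library of the other groups, over mECC (log2 FC 1.41, SE 0.15, edgeR adjusted p = 1.18e-07) and over normal cells (1.05, SE 0.15, edgeR adjusted p = 3.11e-06). For mECC against normal the log2 fold change was -0.36 (SE 0.17, edgeR adjusted p = 0.0591), which missed the threshold although the libraries did not overlap. It passed without HPmECC replicate 1 or 4 (edgeR adjusted p = 0.0266 and 0.0367), with median-of-ratios factors (0.0455) and in a fit of the 2 groups alone (0.0442), while on the TPM scales of limma its sign turned.

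The IFIT genes lie side by side on chromosome 19 and encode proteins that bind viral RNA and block its translation, yet their levels took different orders. Ifit1 (ENSMUSG00000034459, chr19:34640871-34650009, plus strand) had CPM values of 5.71, 5.97, 5.88 and 5.19 in HPmECC, 1.62, 1.42, 1.59 and 1.36 in mECC and 0.203, 0.779, 0.606 and 1.10 in normal cells. HPmECC was highest, mECC intermediate and normal cells lowest, without overlap. It rose in HPmECC over mECC (log2 FC 1.92, SE 0.18, edgeR adjusted p = 2.34e-08) and over normal cells (log2 FC 2.99, SE 0.22, edgeR adjusted p = 2.17e-10), and in mECC over normal cells (log2 FC 1.07, SE 0.26, edgeR adjusted p = 0.000881). Ifit3, whose product supports IFIT1, had CPM values of 3.88, 2.57, 2.99 and 2.10 in HPmECC, 1.15, 1.20, 1.12 and 1.45 in mECC and 5.55, 7.69, 6.45 and 6.47 in normal cells. Here normal cells were highest and mECC lowest. Ifit3 was lower than normal in mECC (log2 FC -2.41, SE 0.18, edgeR adjusted p = 2.95e-10) and in HPmECC (log2 FC -1.20, SE 0.16, edgeR adjusted p = 1.26e-06), and higher in HPmECC than in mECC (log2 FC 1.22, SE 0.19, edgeR adjusted p = 1.98e-05). Its near relative Ifit3b had 126, 181 and 172 counts in HPmECC, mECC and normal cells, and reads may be split between them. These counts, like those of the neighbour below, are sums over 4 libraries without scaling for library size. They give no order of the groups where they differ little. Ifit2 averaged 19.1 ± 1.26 CPM (mean ± SD) in HPmECC, 22.1 ± 1.34 in mECC and 7.65 ± 0.918 in normal cells. It was higher than normal in mECC (log2 FC 1.52, SE 0.080, edgeR adjusted p = 1.34e-12) and in HPmECC (log2 FC 1.31, SE 0.082, edgeR adjusted p = 1.79e-11), and slightly lower in HPmECC than in mECC (log2 FC -0.21, SE 0.068, edgeR adjusted p = 0.0102). Among the neighbours on either side, looked up after the values were seen, Ch25h, which encodes a cholesterol hydroxylase, had 2522, 122 and 520 counts in HPmECC, mECC and normal cells.

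The promoters of Ifit1 and Ifit3 each hold 2 ISRE matches, meaning GAAA, any 2 bases and GAAA again, or TTTC, any 2 bases and TTTC where the motif lies on the other strand. They are shown because these neighbouring genes differ in their order across the groups; capitals mark the ISRE matches (RefSeq, GRCm38.p6, plus strand, Ifit1 at chr19:34640765-34640833 and the 2 Ifit3 windows at chr19:34583353-34583402 and chr19:34583387-34583436):
Ifit1: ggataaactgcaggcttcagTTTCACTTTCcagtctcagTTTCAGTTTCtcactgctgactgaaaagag
Ifit3 upstream: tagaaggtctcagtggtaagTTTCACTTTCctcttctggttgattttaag
Ifit3 downstream: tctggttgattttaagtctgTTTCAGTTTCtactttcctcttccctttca
Ifit2 holds no ISRE match in this window and 1 GAS match.

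The most extreme values of all members were those of the oligoadenylate synthetases, which sense viral RNA and activate RNase L. Oas1a (ENSMUSG00000052776, chr5:120896256-120907521, minus strand) had CPM values of 0.128, 0.0357, 0 and 0.0737 in HPmECC, 0, 0, 0.145 and 0 in mECC and 19.4, 22.1, 19.8 and 20.3 in normal cells. It was close to absent from both lines, with 6 counts in all HPmECC libraries and 4 in all mECC libraries, against 1514 in normal cells. The log2 fold change was -8.25 (SE 0.26, edgeR adjusted p = 4.13e-16) for HPmECC against normal and -8.84 (SE 0.27, edgeR adjusted p = 3.1e-16) for mECC against normal. All 4 mECC counts came from replicate 3. Without that library the value was -11.83 for mECC against normal, and the difference between the lines, 0.58 and not called (edgeR adjusted p = 0.603), became 3.58 (edgeR adjusted p = 0.0211). These fitted values depend on the prior count, since mECC then has 0 counts.

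Oas2 and Oas3 followed the same order. Oas2 had CPM values of 0, 0.0715, 0 and 0.0368 in HPmECC, 0 in all 4 libraries of mECC and 7.85, 8.05, 7.88 and 7.02 in normal cells. With 0 counts in mECC against 567 in normal cells, it was 261-fold lower in mECC, taking 3 counts over the group as the floor (edgeR adjusted p = 5.74e-13). With 3 counts in HPmECC, the normal to HPmECC ratio was 249.5, with an exact 95% counting interval of 84.9 to 1214 that covers counting error only (edgeR adjusted p = 9.66e-13). The fitted log2 fold change of HPmECC against normal was -7.73, and -8.59 without HPmECC replicate 2. Between the lines Oas2 was not called (edgeR adjusted p = 0.0555), and it passed without HPmECC replicate 1 (0.0358) or replicate 3 (0.0396). Oas3 had CPM values of 0.256, 0.322, 0.157 and 0.332 in HPmECC, 0 in all 4 libraries of mECC and 7.18, 9.82, 8.70 and 7.71 in normal cells. It was detected in every HPmECC library and in no mECC library (27 counts against 0, edgeR adjusted p = 1.96e-05). With the floor of 3 counts in mECC, Oas3 was 9.40-fold higher in HPmECC, without allowing for counting error in the 27. On the log2(TPM + 1) scale limma gave adjusted p = 0.0509. Against normal cells, Oas3 was 286-fold lower in mECC at the same floor (edgeR adjusted p = 2.67e-13) and lower in HPmECC (log2 FC -4.90, SE 0.21, edgeR adjusted p = 2.26e-12). The promoters of the 2 OAS genes that the table lists hold ISRE matches close to the start, shown here because these genes were nearly silent in the lines (RefSeq, GRCm38.p6, minus strand, ISRE in capitals, Oas1a at chr5:120907526-120907565 and Oas3 at chr5:120777705-120777754):
Oas1a: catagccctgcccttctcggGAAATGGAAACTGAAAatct
Oas3: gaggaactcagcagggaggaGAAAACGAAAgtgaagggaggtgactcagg

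Other genes of the Oas1 to Oas3 cluster on chromosome 5 that were expressed in normal cells were also low in the lines. So were the genes nearest to the cluster on either side. All were looked up after the values were seen, and counts here are sums over 4 libraries without scaling for library size. How often genes elsewhere were this low in both lines was not tested. Oas1e, Oas1f and Oas1h had 0 counts in all 3 groups, and Oas1d had 0 counts in HPmECC and in mECC, against 8 in normal cells. Oas1g had 0 counts in HPmECC and in mECC, against 390 in normal cells. Oas1c had 19, 23 and 337 counts, and Oas1b had 13, 11 and 101 counts, in HPmECC, mECC and normal cells. Next to Oas2, the Notch pathway ubiquitin ligase gene Dtx1 had 0, 7 and 151 counts, and Rasal1, a Ras GTPase-activating protein gene, had 1, 1 and 683 counts. Rph3a, on the other side of Oas1a, had 0, 0 and 151 counts. Ddx54, an RNA helicase gene beyond Rasal1, was not low, with 17302 counts in HPmECC and 18240 in mECC, against 10452 in normal cells. Further out on that side, Rita1 (1201, 1269 and 585 counts), Iqcd (71, 107 and 13) and Tpcn1 (7305, 10606 and 2155) also had more counts in both lines. Slc8b1, beyond Tpcn1, had fewer in both lines (1869, 1536 and 2527). Oas1a and Oas1g are near relatives, so the division of reads between them is uncertain, but both were near or at 0 in the lines.

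**Figure D3:**
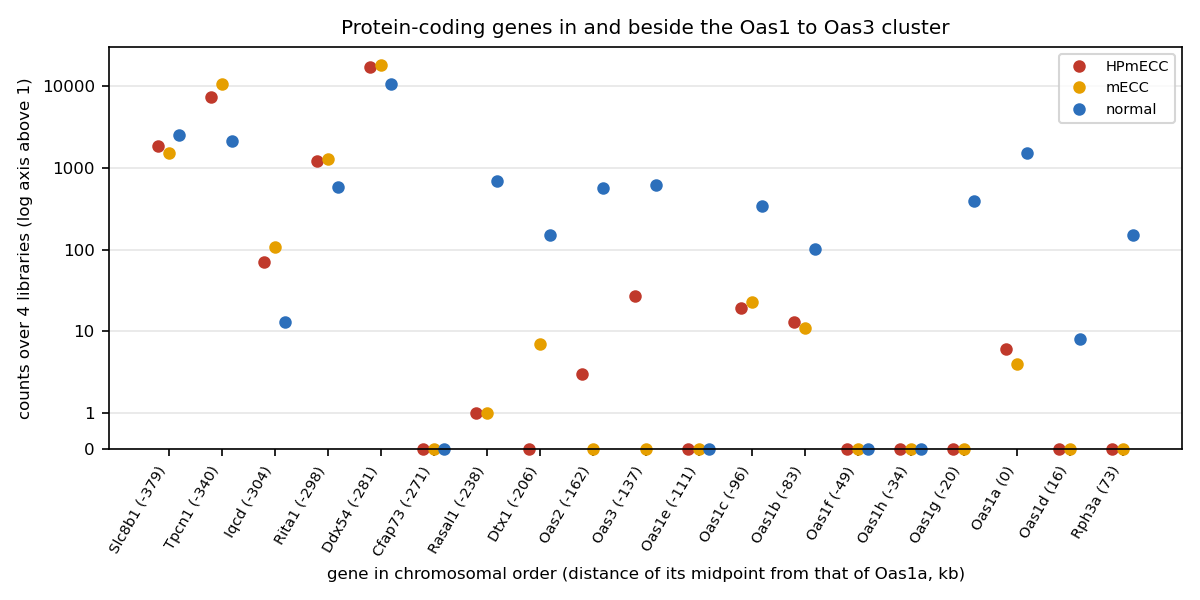
Counts summed over the 4 libraries of HPmECC, mECC and normal cells for protein-coding genes in and beside the Oas1 to Oas3 cluster, in chromosomal order, with the distance of each gene's midpoint from that of Oas1a in kb in parentheses. Counts are not scaled for library size, and the axis is logarithmic above 1 count. From Rasal1 to Rph3a every gene with more than 10 counts in normal cells has fewer counts in both lines, while Ddx54, Rita1, Iqcd and Tpcn1 have more.

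The OAS-like genes lie outside that cluster and stayed expressed in all groups; the mouse Oasl1 protein is known to lack synthetase activity. Oasl1 had CPM values of 11.2, 11.9, 11.0 and 12.2 in HPmECC, 21.0, 22.1, 22.1 and 22.0 in mECC and 19.6, 19.4, 19.1 and 18.7 in normal cells. HPmECC was lowest, and mECC lay slightly above normal cells. Oasl1 was lower in HPmECC than in mECC (log2 FC -0.91, SE 0.052, edgeR adjusted p = 2.02e-11) and than in normal cells (log2 FC -0.72, SE 0.055, edgeR adjusted p = 3.59e-10), and higher in mECC than in normal cells (log2 FC 0.19, SE 0.051, edgeR adjusted p = 0.00203). Oasl2 had CPM values of 9.34, 10.8, 10.5 and 12.05 in HPmECC, 17.9, 18.5, 16.1 and 18.4 in mECC and 4.27, 5.92, 4.68 and 5.88 in normal cells. Both lines were above normal cells, mECC (log2 FC 1.75, SE 0.10, edgeR adjusted p = 5.79e-12) and HPmECC (log2 FC 1.03, SE 0.11, edgeR adjusted p = 4.34e-08), and HPmECC was below mECC (log2 FC -0.72, SE 0.087, edgeR adjusted p = 6.03e-07). Eif2ak2 encodes PKR, the kinase that halts translation when it binds viral RNA, and it averaged 62.2 ± 1.43 CPM (mean ± SD) in HPmECC, 65.8 ± 1.13 in mECC and 49.4 ± 0.542 in normal cells. It was higher than normal in mECC (log2 FC 0.41, SE 0.031, edgeR adjusted p = 4.11e-10) and in HPmECC (0.33, SE 0.032, edgeR adjusted p = 1.09e-08). HPmECC against mECC, at a log2 fold change of -0.079 (SE 0.030, edgeR adjusted p = 0.0262), missed the threshold when any of HPmECC replicates 1 and 3 or mECC replicates 3 and 4 was left out (edgeR adjusted p = 0.0732, 0.0784, 0.0615 and 0.0644). The call was also lost with no filter on low counts (edgeR adjusted p = 0.112) and on both TPM scales of limma (adjusted p = 0.127 on each).

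Mx1, a dynamin-like GTPase that traps viral ribonucleoproteins, was close to absent from both lines. It had CPM values of 0.213, 0.0357, 0 and 0.0368 in HPmECC, 0.0855, 0.109, 0.0362 and 0.0851 in mECC and 6.36, 5.09, 4.85 and 5.46 in normal cells. Of the 7 HPmECC counts most came from replicate 1, and 8 counts were seen in mECC, against 399 in normal cells. The log2 fold change was -6.14 (SE 0.35, edgeR adjusted p = 3.71e-12) for HPmECC against normal, or -7.38 without HPmECC replicate 1, and -6.02 (SE 0.34, edgeR adjusted p = 3.43e-12) for mECC against normal. C57BL/6 mice are known to carry a defective Mx1 gene, whose transcript is still made. Mx2 had 17, 30 and 7 counts in HPmECC, mECC and normal cells, too few to be tested, and reads of the Mx pair may be divided between them.

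Rsad2 encodes viperin, which makes a nucleotide analog that ends viral RNA chains, and among called members it had the largest HPmECC excess over mECC apart from Oas3. It had CPM values of 2.22, 2.36, 1.73 and 1.69 in HPmECC, 0.214, 0.291, 0.471 and 0.213 in mECC and 0.745, 1.299, 0.881 and 0.413 in normal cells. HPmECC was above both other groups in every library, over mECC (log2 FC 2.71, SE 0.31, edgeR adjusted p = 3.78e-07) and over normal cells (1.27, SE 0.28, edgeR adjusted p = 0.000371). In mECC Rsad2 was lower than normal (log2 FC -1.44, SE 0.37, edgeR adjusted p = 0.00146), with overlapping libraries and few counts (31 in mECC, 61 in normal cells). On the log2(TPM + 1) scale of limma the call for mECC against normal was lost (adjusted p = 0.0995). Cmpk2, a nucleotide kinase gene that neighbours Rsad2, averaged 0.736 ± 0.114 CPM (mean ± SD) in HPmECC, 0.888 ± 0.155 in mECC and 1.11 ± 0.178 in normal cells. It passed the test for HPmECC against normal only (-0.59, SE 0.23, edgeR adjusted p = 0.0251), and that call was lost without HPmECC replicate 1 or 4 or normal replicate 1 or 2 (edgeR adjusted p = 0.0644, 0.0659, 0.0636 and 0.0613), under library totals (0.123) and with no filter on low counts (0.115), and the sign turned on the TPM scale. Isg20, an exonuclease active on RNA, averaged 34.7 ± 3.57 CPM (mean ± SD) in HPmECC, 28.9 ± 1.29 in mECC and 55.9 ± 2.23 in normal cells. It was lower than normal in mECC (log2 FC -0.95, SE 0.060, edgeR adjusted p = 2.06e-11) and in HPmECC (log2 FC -0.69, SE 0.059, edgeR adjusted p = 2.27e-09), and higher in HPmECC than in mECC (log2 FC 0.26, SE 0.061, edgeR adjusted p = 0.000876), with 1 HPmECC library inside the mECC range.

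ISG15 is a ubiquitin-like protein that is attached to other proteins, USP18 removes it and also blocks the type I interferon receptor, and TRIM25 is a ligase that activates RIG-I. Isg15 had CPM values of 4.13, 4.40, 3.04 and 3.90 in HPmECC, 2.10, 2.40, 2.14 and 2.26 in mECC and 1.76, 2.13, 2.86 and 2.57 in normal cells. HPmECC libraries were above all others, over mECC (log2 FC 0.81, SE 0.15, edgeR adjusted p = 0.000111) and over normal cells (0.73, SE 0.16, edgeR adjusted p = 0.000314), whereas mECC and normal libraries overlapped (edgeR adjusted p = 0.652). Usp18 (ENSMUSG00000030107) had CPM values of 0.341, 0.643, 0.525 and 0.332 in HPmECC, 0.470, 0.327, 0.471 and 0.723 in mECC and 17.6, 17.0, 17.0 and 14.0 in normal cells. Both lines were low and overlapped each other, and every normal library was above 10 CPM. Usp18 fell in HPmECC (log2 FC -5.13, SE 0.17, edgeR adjusted p = 1.14e-15) and in mECC (-5.04, SE 0.17, edgeR adjusted p = 1.09e-15) relative to normal cells. Trim25 had CPM values of 63.3, 59.0, 57.0 and 61.4 in HPmECC, 63.7, 64.6, 61.6 and 61.5 in mECC and 166, 171, 166 and 174 in normal cells. It was lower than normal in HPmECC (log2 FC -1.49, SE 0.034, edgeR adjusted p = 2.52e-18) and in mECC (-1.43, SE 0.034, edgeR adjusted p = 4.57e-18), and the lines were not called different (edgeR adjusted p = 0.126). HPmECC was called lower in Trim25 without HPmECC replicate 1 (0.0479), under library totals (0.0107) and on the TPM scales of limma (0.0300 and 0.0310). The Isg15 promoter holds 3 overlapping ISRE matches and that of Rsad2 holds 1, shown because both genes were highest in HPmECC (RefSeq, GRCm38.p6, minus strand, ISRE in capitals, Isg15 at chr4:156200855-156200916 and Rsad2 at chr12:26456543-26456592):
Isg15: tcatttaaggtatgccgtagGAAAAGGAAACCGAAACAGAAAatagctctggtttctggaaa
Rsad2: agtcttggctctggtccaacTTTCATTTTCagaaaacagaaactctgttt

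The immunity-related GTPases, a family that acts on the vacuoles of intracellular parasites and is induced mainly by interferon gamma, were higher in mECC than in HPmECC. Irgm1 (ENSMUSG00000046879) is a regulator of the other GTPases of this family. It had CPM values of 44.6, 48.8, 44.7 and 52.2 in HPmECC, 131, 141, 137 and 144 in mECC and 38.3, 36.5, 35.3 and 36.9 in normal cells. The mECC libraries stood far above the others, and HPmECC lay just above normal cells. Irgm1 was lower in HPmECC than in mECC (log2 FC -1.54, SE 0.045, edgeR adjusted p = 1.42e-15), the largest fall among members between the lines, and higher than normal in mECC (log2 FC 1.91, SE 0.048, edgeR adjusted p = 1.31e-17) and in HPmECC (0.38, SE 0.052, edgeR adjusted p = 1.47e-06). Irgm2 had CPM values of 6.10, 6.33, 5.72 and 6.00 in HPmECC, 8.08, 9.05, 8.95 and 8.04 in mECC and 5.69, 5.87, 6.12 and 5.33 in normal cells. Its mECC libraries were above both other groups, over normal cells (log2 FC 0.57, SE 0.085, edgeR adjusted p = 4.61e-06), and HPmECC was lower than mECC (log2 FC -0.50, SE 0.081, edgeR adjusted p = 2.51e-05). HPmECC and normal libraries overlapped for Irgm2 (edgeR adjusted p = 0.43), and HPmECC was called higher under library totals (0.00932) and on the TPM scales of limma (0.0308 and 0.0192).

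Igtp, which encodes another GTPase of this family, had CPM values of 7.08, 6.68, 4.67 and 6.15 in HPmECC, 10.01, 8.21, 8.99 and 8.21 in mECC and 7.65, 8.47, 6.56 and 6.57 in normal cells. It was lower in HPmECC than in mECC (log2 FC -0.51, SE 0.12, edgeR adjusted p = 0.000702). The log2 fold change of mECC against normal, 0.28 (SE 0.12, edgeR adjusted p = 0.0352), was a call that was lost without mECC replicate 1 or 3 or normal replicate 3 or 4 (edgeR adjusted p = 0.106, 0.0613, 0.102 and 0.115), with DESeq2 (adjusted p = 0.0535) and with median-of-ratios factors (edgeR adjusted p = 0.0507). HPmECC and normal cells were not called different for Igtp (edgeR adjusted p = 0.086), but HPmECC was called lower without HPmECC replicate 1 (0.0444), with DESeq2 (0.0439), with median-of-ratios factors (0.0481) and with the batch term (0.0436). Igtp and Irgm2 are neighbours on chromosome 11 and share 162 exon bases on the same strand, so their counts are not independent. Each promoter holds an ISRE match and, just before it, a GAS match that is left in lower case below. The GAS match lies at positions -45 to -37 in Igtp and -75 to -67 in Irgm2. Their promoter windows around the ISRE are the same at 48 of 50 bases, and are shown with the ISRE in capitals (RefSeq, GRCm38.p6, plus strand, Igtp at chr11:58199502-58199551 and Irgm2 at chr11:58214893-58214942):
Igtp: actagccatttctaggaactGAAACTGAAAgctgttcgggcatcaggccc
Irgm2: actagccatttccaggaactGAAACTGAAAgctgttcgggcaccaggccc

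The guanylate-binding proteins Gbp2 and Gbp3, large GTPases that act on the same vacuoles, changed little. Gbp2 averaged 9.12 ± 1.06 CPM (mean ± SD) in HPmECC, 10.2 ± 0.452 in mECC and 10.8 ± 0.638 in normal cells. Its only call was for HPmECC against normal (-0.23, SE 0.085, edgeR adjusted p = 0.0192), which was lost without HPmECC replicate 3 or normal replicate 2 (edgeR adjusted p = 0.0728 and 0.0573) and with no filter on low counts (0.067). Under library totals that difference was -0.030 (edgeR adjusted p = 0.742), and on the TPM scales of limma -0.072 and -0.063 (adjusted p = 0.477 and 0.467). Between the lines Gbp2 was not called (edgeR adjusted p = 0.103), and it passed without HPmECC replicate 4 (0.0357), under library totals (0.0379) and on the TPM scales of limma (0.0377 and 0.0321). Gbp3 averaged 2.44 ± 0.368 CPM (mean ± SD) in HPmECC, 2.23 ± 0.185 in mECC and 3.26 ± 0.375 in normal cells. It was lower than normal in mECC (-0.53, SE 0.15, edgeR adjusted p = 0.00268) and in HPmECC (-0.40, SE 0.15, edgeR adjusted p = 0.0172), the call for HPmECC was lost without HPmECC replicate 1 or normal replicate 3 (edgeR adjusted p = 0.0522 and 0.0607), and both calls were lost under library totals (edgeR adjusted p = 0.0722 for mECC and 0.198 for HPmECC) and on the TPM scales of limma. Reads of the Gbp genes may be split among near-identical relatives.

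Of the remaining members, 4 were lower than normal in both lines. Bst2, also called tetherin, holds budding viruses at the cell surface, and it had CPM values of 23.6, 23.2, 23.4 and 22.1 in HPmECC, 27.5, 26.5, 26.9 and 27.1 in mECC and 85.1, 84.1, 75.7 and 72.0 in normal cells. Normal cells were far above both lines, and HPmECC was slightly below mECC. Bst2 was lower than normal in HPmECC (log2 FC -1.78, SE 0.051, edgeR adjusted p = 9.97e-17) and in mECC (-1.55, SE 0.050, edgeR adjusted p = 5.59e-16), and lower in HPmECC than in mECC (log2 FC -0.23, SE 0.055, edgeR adjusted p = 0.00131). Its promoter holds 2 overlapping ISRE matches, in capitals, and a GAS match that overlaps the first of them; it is shown because Bst2 was the most abundant member in normal cells (RefSeq, GRCm38.p6, chr8:71537567-71537622, minus strand):
Bst2: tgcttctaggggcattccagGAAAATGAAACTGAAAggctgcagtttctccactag

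Ifi27, a small interferon-induced membrane protein gene, had CPM values of 3.11, 4.18, 3.67 and 3.68 in HPmECC, 3.38, 3.38, 2.75 and 2.94 in mECC and 33.9, 28.4, 29.3 and 30.8 in normal cells. The 2 lines overlapped, and all normal libraries were higher, so that Ifi27 fell in HPmECC (log2 FC -3.05, SE 0.090, edgeR adjusted p = 1.42e-16) and in mECC (-3.29, SE 0.091, edgeR adjusted p = 5.98e-17) relative to normal cells. The lines were not called different for Ifi27 (edgeR adjusted p = 0.077), but HPmECC was called higher without HPmECC replicate 1 (0.0292) and on the TPM scales of limma (0.00606 and 0.00686). Parp14, an ADP-ribosyltransferase gene, had CPM values of 7.08, 8.86, 7.77 and 10.6 in HPmECC, 12.7, 15.2, 11.7 and 12.04 in mECC and 33.3, 36.2, 36.4 and 35.8 in normal cells. The 3 groups were separate, with HPmECC lowest and normal highest. Parp14 was lower than normal in HPmECC (log2 FC -2.03, SE 0.096, edgeR adjusted p = 2.25e-13) and in mECC (-1.46, SE 0.090, edgeR adjusted p = 1.61e-11), and lower in HPmECC than in mECC (log2 FC -0.58, SE 0.10, edgeR adjusted p = 7.33e-05). Ifi44 had CPM values of 1.45, 2.00, 1.42 and 1.07 in HPmECC, 0.770, 0.763, 0.507 and 0.638 in mECC and 4.47, 5.77, 4.96 and 5.28 in normal cells. It was lower than normal in HPmECC (log2 FC -1.78, SE 0.18, edgeR adjusted p = 1.97e-08) and in mECC (-2.93, SE 0.20, edgeR adjusted p = 6.69e-11). The log2 fold change of HPmECC against mECC was 1.15 (SE 0.23, edgeR adjusted p = 0.000187), resting on 146 counts against 68, and was lost on both TPM scales of limma (adjusted p = 0.171 and 0.207).

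Xaf1, a pro-apoptotic antagonist of XIAP, and Ifi35, an interferon-induced leucine zipper protein gene, were higher than normal in both lines. Xaf1 had CPM values of 8.40, 9.61, 7.71 and 8.95 in HPmECC, 11.2, 11.8, 10.1 and 13.2 in mECC and 5.76, 5.82, 6.01 and 5.19 in normal cells. The mECC libraries were highest and the normal libraries lowest. Xaf1 was higher than normal in HPmECC (log2 FC 0.62, SE 0.10, edgeR adjusted p = 1.84e-05) and in mECC (1.02, SE 0.10, edgeR adjusted p = 1.45e-08), and lower in HPmECC than in mECC (log2 FC -0.41, SE 0.089, edgeR adjusted p = 0.000561). The transcript length implied by counts and TPM was 64.3% longer in HPmECC than in normal cells and 67.0% longer in mECC than in normal cells. On the log2(TPM + 1) scale of limma, which divides by that length, the HPmECC difference from normal was 0.08 and not called (adjusted p = 0.423). Ifi35 averaged 19.5 ± 1.27 CPM (mean ± SD) in HPmECC, 21.9 ± 1.94 in mECC and 15.1 ± 1.04 in normal cells. It was higher than normal in HPmECC (log2 FC 0.38, SE 0.073, edgeR adjusted p = 8.9e-05) and in mECC (0.55, SE 0.072, edgeR adjusted p = 9.63e-07). HPmECC against mECC, at a log2 fold change of -0.17 (SE 0.067, edgeR adjusted p = 0.0356), missed the threshold when any of HPmECC replicates 1 and 3 or mECC replicates 2 and 3 was left out (edgeR adjusted p = 0.0867, 0.107, 0.129 and 0.116).

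Promoters of 29 members were in the RefSeq table, and Dhx58, Zbp1, Oas2, Mx1, Mx2, Usp18, Ifi27 and Parp14 were not. An ISRE match on either strand was present for 16 of the 29, and in 3.99% of all 27025 genes (3.44% of 32851 promoters). A GAS match, TTCNNNGAA, which reads the same on both strands, was present for 9 of the 29 and in 9.55% of all genes (8.30% of promoters). Of the 16 members with an ISRE match, 6 were higher and 7 lower in HPmECC than in mECC, 7 were higher and 7 lower in mECC against normal, and 6 were higher and 8 lower in HPmECC than in normal cells. Of the 9 with a GAS match, 1 was higher and 7 lower in HPmECC than in mECC, 6 were higher and 3 lower in mECC against normal, and 4 were higher and 3 lower in HPmECC than in normal cells. Of all genes tested, 33.8% were higher and 34.5% lower in HPmECC than in mECC, 42.1% and 44.2% in mECC against normal, and 43% and 43.3% in HPmECC against normal. These counts are small and were not tested against those shares. The matches are descriptions of letters in a 300-base window, and Igtp and Irgm2 count separately although their windows are near copies.

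Upstream of the members, interferon transcripts themselves were scarce. Of 21 interferon genes, 16 had 0 counts in all 12 libraries. Ifne, the interferon of the reproductive tract epithelium, was the only one tested, with 2 counts in HPmECC and 1 in mECC, against 316 in normal cells. The normal to HPmECC ratio was 209, with an exact 95% counting interval of 57.3 to 1730 (edgeR adjusted p = 2.04e-12), and the normal to mECC ratio was 436, with an interval of 77.7 to 17270 (edgeR adjusted p = 1.35e-12). Ifnb1 had 2, 2 and 0 counts and Ifng 2, 3 and 0 counts in HPmECC, mECC and normal cells, which does not allow a comparison at this depth.

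Receptor and kinase transcripts were present in all groups. Of 6 receptor genes, 2 were higher and 3 lower in HPmECC than in mECC, 2 were higher and 3 lower in mECC against normal, and 1 was higher and 5 lower in HPmECC than in normal cells. Called were 83.3% of the receptor genes between the lines, 83.3% for mECC against normal and 100% for HPmECC against normal, where 68.3%, 86.3% and 86.4% of all genes were called in the same 3 comparisons. Ifnar1, a chain of the type I receptor, averaged 73.5 ± 1.86 CPM in HPmECC, 80.8 ± 1.56 in mECC and 79.4 ± 1.80 in normal cells. Ifnar2, its partner, was higher than normal in both lines, in HPmECC (log2 FC 0.69, SE 0.041) and in mECC (0.40, SE 0.042). Ifngr1, a chain of the interferon gamma receptor, was lower in HPmECC than in mECC (log2 FC -0.93, SE 0.045). Ifnlr1, which binds type III interferons, was lower than normal in HPmECC (log2 FC -2.58, SE 0.092) and in mECC (-1.63, SE 0.083), and so was Il10rb, its partner, in HPmECC (-1.40, SE 0.054) and in mECC (-1.42, SE 0.054).

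Among 9 genes of JAK-STAT signaling and its brakes, 4 were higher and 2 lower in HPmECC than in mECC, 3 were higher and 4 lower in mECC against normal, and 3 were higher and 5 lower in HPmECC than in normal cells. The called shares were 66.7% for HPmECC against mECC, 77.8% for mECC against normal and 88.9% for HPmECC against normal, beside those same shares of all genes. Jak2, the kinase of the interferon gamma receptor, was lower than normal in HPmECC (log2 FC -1.83, SE 0.055) and in mECC (-1.36, SE 0.053). Socs3, a feedback inhibitor of JAK signaling, was higher in HPmECC (log2 FC 2.24, SE 0.048) and in mECC (1.98, SE 0.049). Tyk2, a kinase of the type I receptor, was lower than normal in HPmECC (log2 FC -0.44, SE 0.040) and in mECC (-0.71, SE 0.041). Jak1, its partner, averaged 174 ± 6.88 CPM in HPmECC, 232 ± 2.92 in mECC and 199.9 ± 2.67 in normal cells.

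**Figure D4:**
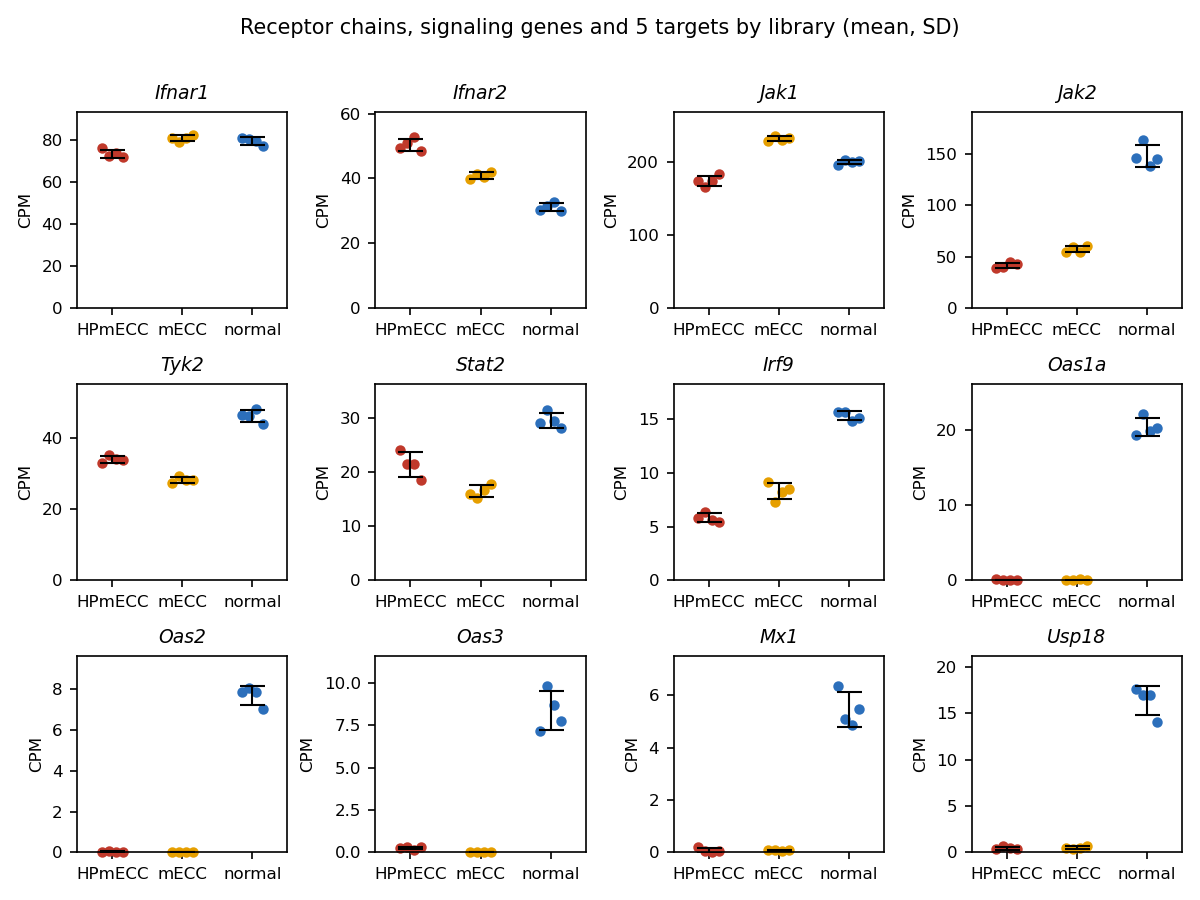
CPM by library of the type I interferon receptor chains (Ifnar1, Ifnar2), signaling genes (Jak1, Jak2, Tyk2, Stat2, Irf9) and 5 target genes, with HPmECC, mECC and normal from left to right, 1 point per library, and bars for mean and SD of 4 libraries. Each axis starts at 0. The 5 target genes are the members with the largest falls from normal in both lines. Of 36 tested members, 13 were called higher and 19 lower than normal in mECC, and 12 higher and 22 lower in HPmECC. The receptor chains and signaling genes lie well above 0 in all 12 libraries, while Oas1a, Oas2, Oas3, Mx1 and Usp18 lie near 0 in both lines only.

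Of 14 adaptors, kinases and further sensors upstream of interferon induction, 3 were higher and 8 lower in HPmECC than in mECC, 4 were higher and 9 lower in mECC against normal, and 4 were higher and 10 lower in HPmECC than in normal cells. Called were 78.6% of them for HPmECC against mECC, 92.9% for mECC against normal and 100% for HPmECC against normal, against 68.3%, 86.3% and 86.4% of all genes. Tmem173, which encodes the DNA sensing adaptor STING, was higher in HPmECC than in mECC (log2 FC 1.24, SE 0.091) and lower than normal in HPmECC (log2 FC -1.34, SE 0.075) and in mECC (-2.58, SE 0.084). Mb21d1, which encodes cGAS, the enzyme that activates STING, was higher than normal in HPmECC (log2 FC 0.83, SE 0.14) and in mECC (1.34, SE 0.14). Tlr3, a receptor for viral RNA in endosomes, was lower in HPmECC than in mECC (log2 FC -2.36, SE 0.082). Ikbke, a kinase that acts on IRF3, was lower than normal in HPmECC (log2 FC -2.79, SE 0.062) and in mECC (-2.13, SE 0.057). Nlrc5, the activator of MHC class I genes, was lower than normal in HPmECC (log2 FC -2.42, SE 0.18) and in mECC (-2.62, SE 0.18), while Ticam1, the adaptor of TLR3, was higher in HPmECC (0.67, SE 0.043) and in mECC (1.12, SE 0.042).

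Another 58 genes listed as interferon-stimulated outside the member set, 54 of them tested, also moved in both directions. Between the lines 14 were higher and 20 lower in HPmECC, in mECC 21 were higher and 25 lower than in normal cells, and in HPmECC 21 were higher and 27 lower than in normal cells. Called genes made up 63% of those tested between the lines, 85.2% for mECC against normal and 88.9% for HPmECC against normal, near the 68.3%, 86.3% and 86.4% of all genes. The GTPase genes Tgtp1 and Ifi47 were lower in HPmECC than in mECC (log2 FCs -2.36, SE 0.12 and -1.73, SE 0.077), as was Samd9l, a growth-restraining antiviral factor gene (log2 FC -1.80, SE 0.068). Gbp8 and Gbp4 were higher in HPmECC than in mECC (log2 FCs 2.50, SE 0.11 and 1.02, SE 0.10), as was the immunoproteasome subunit gene Psmb8 (log2 FC 0.77, SE 0.060). Tgtp2 and Gbp6 were higher than normal in both lines, Tgtp2 in HPmECC (log2 FC 4.57, SE 0.21) and in mECC (6.11, SE 0.18), and Gbp6 in HPmECC (3.01, SE 0.20) and in mECC (2.95, SE 0.20). Bst1, a surface enzyme gene of stromal and myeloid cells on this list, was lower than normal in HPmECC (log2 FC -10.59, SE 0.19) and in mECC (-5.30, SE 0.11). Whether Bst1 responds to interferon in these cells was not tested. Slfn9 was also lower than normal in HPmECC (-4.82, SE 0.096) and in mECC (-4.80, SE 0.095). Irf8, a factor of myeloid cells, averaged 0.0539 ± 0.0622 CPM in HPmECC, 0.693 ± 0.0936 in mECC and 9.90 ± 0.912 in normal cells.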

How the data were processed

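Gene expression was measured in 12 libraries, 4 each of HPmECC, mECC and normal cells. Per the labels, total RNA went into TruSeq libraries. Trim Galore, STAR 2.6.1a, RSEM 1.3.1 and build GRCm38 are named in the submitters' processing notes. For the annotation release and strand, the setting is not given in the sources used here. Expected counts, deposited by the authors, are RSEM's estimated counts per gene, a method that divides reads shared by several genes, and were here rounded to whole numbers. The authors' deposited TPM values, scaled for transcript length and library, served for levels compared between genes and for alternatives. FPKM values were not used.

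Of 55385 identifiers, 55144 matched a symbol. The test was edgeR 4.0.16 quasi-likelihood in R 4.3.3 on the 3 groups together (12 libraries), after TMM scaling and filterByExpr at its minimum of 10 counts, which left 15283 genes. This filter was applied once over the 3 groups. P-values were adjusted by Benjamini-Hochberg over the 15283 genes, at 0.05. The script was tested on simulated data. A group at 0 counts was given a floor of 3 counts over its 4 libraries. Intervals cover counting error only, since reads carry no molecular identifiers. Floors cover it for the group at 0 only and take the counts of the higher group as exact.

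The members and gene lists were chosen with earlier results of these data known. Members were described with all library values where a call, separate groups and a higher group of 5 CPM or more coincided, for up to 12 with the largest change per comparison, which gave 24 genes; all others are summarised. Rsad2 and Isg15 were given in full, and genes beside the members were looked up, after their values were seen. Of each pathway list, up to 3 genes per direction and comparison with the largest changes were eligible; Tyk2, Jak1 and Ifnar1 were added after their values were seen. Gene coordinates are from GENCODE release 21 (GRCm38), and promoter sequences from RefSeq (GRCm38.p6).

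Alternatives were DESeq2 1.42.0, median-of-ratios factors, library totals, no filter on low counts, a fit of 2 groups alone, limma 3.58.1 on log2(TPM + 1) and log2(TPM + 0.1), a block for the replicate number, replicates 1 and 2 against 3 and 4 as a batch term, and each library left out in turn. Replicates of a group differed by more than counting noise (chi-square per degree of freedom 2.59 to 7.11).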

Additional observations from a re-analysis of the deposited data

Results flagged for a closer look

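Of 106 sets of 4 libraries (the 36 tested members in each group, without Oas2 and Oas3 in mECC, which had 0 counts; Mx2 was not included), 2 held a library whose gap to the nearest other exceeded the 95% critical value of Dixon's test, where chance alone gives about 1 in 20, or 5.3 sets. Oas1a reached 0.145 CPM in mECC replicate 3, where the other 3 mECC libraries had 0. Oasl1 had 21.0 CPM in mECC replicate 1, below the 22.0 to 22.1 CPM of the other mECC libraries, and this gap is small beside the 11.6 CPM mean of HPmECC.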

How the results depend on the processing

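Over the 9 alternatives and the 12 libraries left out in turn, the counts of called members and of called genes stayed within 1.5 times the values reported. With a library left out, 23 to 26 members were called for HPmECC against mECC, 31 to 33 for mECC against normal and 32 to 34 for HPmECC against normal. Of 108 member results, 91 were called, 79 of these held in every alternative and 12 were lost in at least 1, while 8 that were not called became called in at least 1. The cause was not tested. The replicate numbers did not pair the samples: 0 of 12 pairs of libraries with the same number had deviations correlated above 0.1 (r from -0.0514 to 0.0797), and 3 libraries correlated best with their own number. With the replicate number as a block, 25, 33 and 34 members were called for HPmECC against mECC, mECC against normal and HPmECC against normal, and Zbp1 became called for mECC against normal (-0.34).

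Some log2 fold changes changed sign, and of these results only Cmpk2 for HPmECC against normal had been called. On the log2(TPM + 0.1) and log2(TPM + 1) scales Cmpk2 was 0.054 and 0.046 for HPmECC against normal and 0.11 and 0.070 for HPmECC against mECC. On these scales Gbp3 was -0.059 and -0.041 for HPmECC against mECC, and Zbp1 was 0.052 and 0.043 for mECC against normal. Under library totals and the same scales, Gbp2 was 0.17, 0.17 and 0.15 and Isg15 0.16, 0.20 and 0.17 for mECC against normal. With a library left out, Isg15 ran from -0.18 to 0.024, the highest value without normal replicate 3. Irf3, for HPmECC against mECC, was -0.0034 with DESeq2, -0.034 under library totals, -0.075 and -0.073 on the TPM scales, -0.0035 with median-of-ratios factors and from -0.017 (without mECC replicate 4) to 0.029 with a library left out. Mx1, for the same comparison, was 0.0050 on the log2(TPM + 1) scale, 0.13, 0.18 and 0.12 without HPmECC replicates 2, 3 and 4, and 0.086 without mECC replicate 2, within a range of -1.37 to 0.18 over the libraries left out. Usp18 was 0.024 and 0.062 without HPmECC replicates 1 and 4 and 0.13 without mECC replicate 4, within a range of -0.33 to 0.13. Few reads limit Oas1a, Oas2, Oas3, Mx1 and Mx2 in the lines, where a single library can hold most of a group's counts.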
